A study of Mus musculus with 2 samples.

Results

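Of 63270 autosomal regions of open chromatin shared by 2 DNase-seq libraries of mouse cerebral cortex, 1684 held no footprint in either library. These footprint-free regions are the subject here. A shared region is a merged interval that holds at least 1 peak of each replicate, taken from the shorter of the 2 peak lists that the authors deposited for each library. It was counted as footprint-free when it overlapped no interval of either replicate's footprint list by 1 bp or more. The members were therefore selected on the absence of a footprint, and that absence is no finding.

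DNase-seq maps where the enzyme DNase I can cut the genome. Right cerebral cortex was taken from adult females, 18 to 20 months old, of strain B6CASTF1/J, the first-generation hybrid of C57BL/6J and CAST/EiJ. The labels give 2 biological replicates in 1 untreated group, so no contrast between conditions exists. Both carry the same donor identifier, and the labels do not say whether they came from separate animals, so the spread between replicates may be partly technical. Bulk tissue mixes neurons, glia and vessel cells, and a region open in few cells cannot be told apart from one weakly open in many. Coordinates are in mm10, so reads of the CAST/EiJ chromosomes were placed on a C57BL/6J reference.

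In general, open chromatin is a stretch where nucleosomes are displaced, as at promoters and enhancers. A footprint is a short segment within such a stretch that is cut less than its surroundings, as happens where a bound protein shields the DNA. Whether a bound factor leaves a footprint is known to depend on how many cuts cover the site, on the enzyme's sequence preference and on how long the factor stays on the DNA.

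The strongest footprint-free region at a promoter, in an exon and in an intron are printed as examples. Being the strongest, they do not represent the members as a set. All were read from the plus strand of the GRCm38.p6 RefSeq genome, the assembly that mm10 names, with each CpG dinucleotide in capitals. They are reference sequence, not the hybrid's own alleles, and annotated UTR bases were left off. The first lies at the promoter of Ncl, which encodes nucleolin, at chr1:86358970-86359200. The second has its midpoint in an exon at Igkv6-23, an immunoglobulin kappa variable gene segment, at chr6:70260281-70260560. Not all of its printed bases need be exonic. The third lies in an intron near a start site of Sbf1, at chr15:89309961-89310200.
Ncl promoter: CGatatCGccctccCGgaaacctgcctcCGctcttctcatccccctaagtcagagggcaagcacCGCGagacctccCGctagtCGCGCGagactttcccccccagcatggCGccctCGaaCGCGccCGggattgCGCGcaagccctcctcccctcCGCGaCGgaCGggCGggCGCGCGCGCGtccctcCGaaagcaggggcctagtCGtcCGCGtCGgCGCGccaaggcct
Igkv6-23 exon: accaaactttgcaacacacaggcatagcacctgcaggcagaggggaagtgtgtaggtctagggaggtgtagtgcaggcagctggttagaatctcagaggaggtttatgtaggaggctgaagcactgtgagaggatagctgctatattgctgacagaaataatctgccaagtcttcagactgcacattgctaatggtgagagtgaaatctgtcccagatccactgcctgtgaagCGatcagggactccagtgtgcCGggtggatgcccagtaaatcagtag
Sbf1 intron: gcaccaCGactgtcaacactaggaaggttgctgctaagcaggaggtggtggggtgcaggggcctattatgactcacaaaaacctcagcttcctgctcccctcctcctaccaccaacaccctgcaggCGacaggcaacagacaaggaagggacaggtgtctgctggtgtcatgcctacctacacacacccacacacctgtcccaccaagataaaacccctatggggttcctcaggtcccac
The printed Ncl sequence holds 34 CpG dinucleotides in 231 bp. The Sbf1 and Igkv6-23 sequences hold 2 each in 240 and 280 bp.

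The footprint-free regions made up 2.66% of the autosomal shared regions (exact 95% Clopper-Pearson interval 2.54 to 2.79%). Intervals on shares here cover counting error only, and regions are not replicates. With the longer peak lists 5375 regions, 5.41%, were footprint-free. Among the shared regions, in replicate 1 alone 5.33% had no footprint, and in replicate 2 alone 7.83%. Absence in one library went with absence in the other. Of the 3374 regions without a footprint in replicate 1, 49.9% had none in replicate 2 (48.2 to 51.6%), against 5.46% (5.28 to 5.64%) of the regions with one in replicate 1. In the other direction the shares were 34.0% and 2.90%. Because both lists were used by the rule, these shares describe how the selection came about. The pattern held within strength classes as well. In the weakest decile of shared regions by peak value the shares in replicate 2 were 50.2% and 28.7%, and in decile 5 48.3% and 2.80%.

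The members were weak peaks. Each value below is the signal that the authors deposited with a peak, taken as the highest peak of the replicate in the region. Across the members it ran from 0.169 to 2.65 in replicate 1, with a median of 0.527, and from 0.143 to 2.86 in replicate 2, with a median of 0.767. The medians of the other shared regions were 0.870 and 1.27. The ratio of medians was 0.606 in both replicates. All values were whole multiples of 1 step within 0.05 steps, which, if a step stands for 1 read scaled per M (mega) reads, puts the depth at 201 M reads in replicate 1 and 112 M in replicate 2. On that reading, which the files do not state, the median member rested on 106 reads in replicate 1 and 86 in replicate 2, against 175 and 142 for the other regions. Footprints are called from these same reads, so strength is not independent of the rule and is given as a description.

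Across deciles of the shared regions, ordered by the geometric mean of both replicates' values, the footprint-free share fell steadily. It was 7.30% in the weakest decile (6.67 to 7.97%), 2.48% in decile 5 and 0.174% in decile 8. Only 2 members lay in decile 9. None of the 6327 regions in the strongest decile was a member, which leaves an exact interval up to 0.0583%. All but 134 of the members lay in the weaker 5 deciles.

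**Figure D1:**
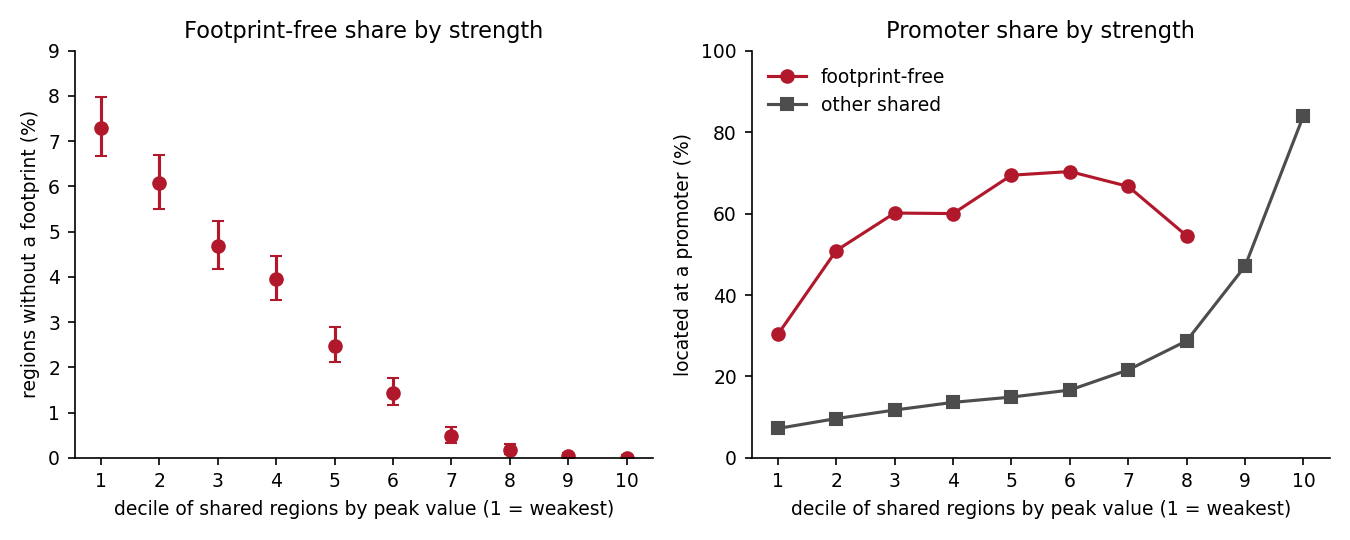
The left panel plots the percentage of autosomal shared regions without a footprint in each decile by peak value, with exact 95% intervals. The right panel plots the percentage located at a promoter among footprint-free regions (deciles 1 to 8, since decile 9 holds 2 members and decile 10 none) and other shared regions. The share falls from 7.30% to 0, and at each decile shown the footprint-free regions are more often at promoters.

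As intervals merged over both replicates, the members were also wide. The median merged width was 280 bp, against 240 bp for the other shared regions and 220 bp for others reweighted to the members' distribution of strength. Widths of 500 bp or more were found in 13.2% of the members and 4.31% of the others, and widths under 100 bp in 3.56% and 0.489%. Within a single replicate the excess was not uniform. The median extent of its peaks was 208.5 bp in members and 220 bp in others for replicate 1. For replicate 2 it was 222.5 and 204 bp. With the longer peak lists the median merged widths were 220 and 240 bp, and with 1 replicate alone 119 bp and 200 to 201 bp. In the weakest decile the members were no wider than the rest, 194 bp against 200 bp at the median, while in decile 4 the medians were 343.5 and 238 bp. The widest member, 1300 bp, lay over a start site of Wnk1, a kinase that regulates ion transport, with values of 0.825 in replicate 1 and 0.856 in replicate 2. Next came 1120 bp within Fzd1, a Wnt receptor gene, and 1080 bp at Lrrc7, which encodes a postsynaptic density protein. A stretch of 977 bp lay in Lemd3, an inner nuclear membrane protein gene, and one of 960 bp in Id4, an inhibitor of basic helix-loop-helix factors. Each of these 5 merged 2 or 3 peaks of each replicate, whereas 89.8% of the members and 95.8% of the others held exactly 1 peak of each.

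The members lay mostly at promoters, defined as a midpoint within 500 bp of any annotated start site. There were 863 promoter members, 51.2% of all (48.8 to 53.7%), against 25.9% of the other shared regions (25.6 to 26.3%). Since promoters among shared regions are mostly strong and the members are weak, the comparison at equal strength was wider: others reweighted over 10 strength bins were at promoters in 11.2%, and in 15.2% when also reweighted over 4 width bins. Introns held 23.6% of the members against 37.1% of the others, and intergenic sequence 18.1% against 32.3%. Exons outside promoters held 7.01% against 4.76%. Among members at promoters the nearest start site belonged to a protein-coding gene in 87.0%, the same share as among other promoter regions.

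The promoter excess depended on the window and on the peak list. With a promoter window of 100 bp it turned to -4.44 percentage points. With the longer peak lists it was 1.74 points, and with the peaks and footprints of 1 replicate alone 1.54 to 7.85 points.

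Regions close beside a start site were the most often footprint-free. Among regions whose nearer edge lay 1 to 500 bp from a start site, 14.1% were footprint-free (13.2 to 15.0%). The share was 2.51% for regions covering a start site, 5.95% from there to 1000 bp and 0.871% between 2000 and 10000 bp. Of the 1260 members within 2000 bp, 58.1% lay downstream of the start site in the direction of transcription, 16.6% upstream, and 25.3% covered it. Of the other shared regions within that distance 23.2% lay downstream, 20.99% upstream, and 55.9% covered one. The median distance from region edge to start site was 320 bp for the members and 6112 bp for the others. With the longer peak lists these medians were 7540 and 7396 bp, and with 1 replicate alone 2702.5 to 4694 bp for regions without a footprint and 6138 to 7085 bp for the rest.

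**Figure D2:**
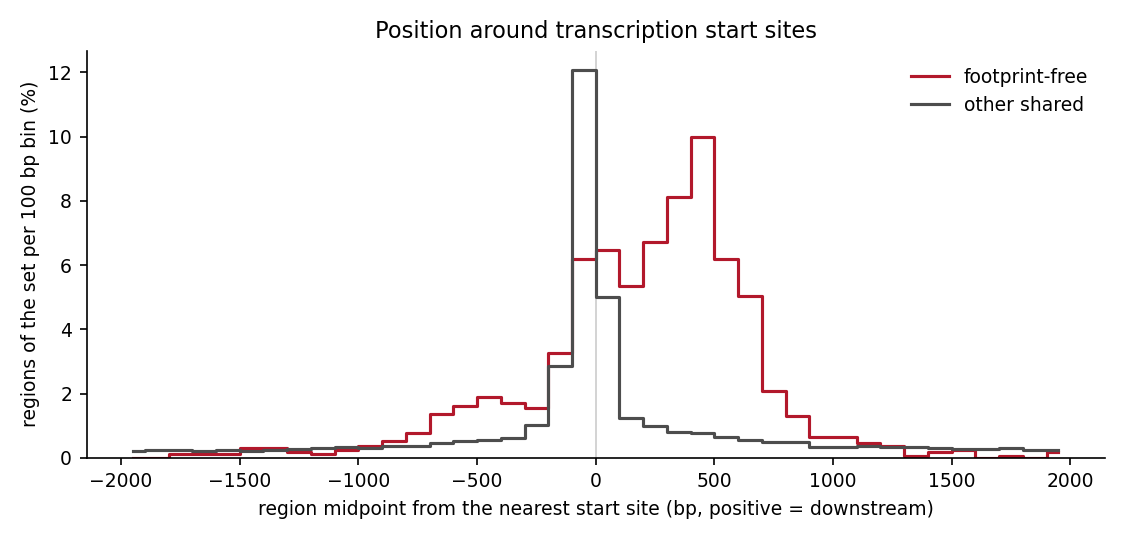
The percentage of each set per 100 bp bin is plotted against the distance from the nearest start site to the region's midpoint, positive downstream. Other shared regions peak in the 100 bp just upstream of the start site, at 12.1%, while footprint-free regions peak 400 to 500 bp downstream, at 9.98%.

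The regions closest to the selection threshold were not like the members in location. The 1753 shared regions with exactly 1 footprint in 1 replicate had lower median values still, 0.477 in replicate 1 and 0.597 in replicate 2. They were 200 bp wide at the median, and their median distance to a start site was 9137 bp, against 320 bp for the members. On the inner side of the threshold, 156 members had a footprint of either replicate within 50 bp, and the median distance to the nearest footprint was 214 bp.

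Most members lay close to another, stronger open region. Another autosomal shared region lay within 1000 bp of 86.2% of the members (84.5 to 87.8%), against 23.1% of the other shared regions. The difference of 63.1 points was 16.2 points with the longer peak lists and 26.6 to 32.7 points with 1 replicate alone. The share of the others was 16.3% after reweighting by strength and 26.4% after reweighting by strength and promoter location. The nearest such neighbour was the stronger of the pair for 96.3% of these 1452 members, by a median of 3.72-fold. Among the 14237 other shared regions with such a neighbour it was the stronger for 45.9%, with a median ratio of 0.929. This comparison of pairs was not matched for strength. Since the members are weak, a stronger neighbour cannot be told apart from their own low values. The neighbour had a footprint for 95.2% of the members and 90.2% of the others. At promoters 854 of 863 members had such a neighbour, and outside promoters 598 of 821. Of the 544 promoter members that did not cover a start site, 461 had a neighbour within 1000 bp that did, 84.7%, against 33.3% of the other promoter regions that did not cover one.

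Among the weaker 5 deciles of all shared regions, the footprint-free share followed the gap to the next region. At promoters it was 38.7% for gaps up to 250 bp, 41.3% from there to 500 bp, 6.15% to 1000 bp and 0.385% beyond. Outside promoters the corresponding shares were 19.8%, 15.4%, 2.91% and 0.95%. Where the neighbour within 1000 bp was at least 2-fold stronger, 44.7% of these weaker regions were footprint-free, and where it was not, 6.20%. Strength was not matched within these deciles, so this split is partly one by the region's own strength. Among these shared regions of the shorter lists, a weak region standing alone therefore seldom lacked a footprint, whether at a promoter or not. The gap classes were not recomputed for the longer lists or for 1 replicate alone, where the neighbour difference was smaller. How the distance to a strong region enters the authors' footprint calling was not tested.

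**Figure D3:**
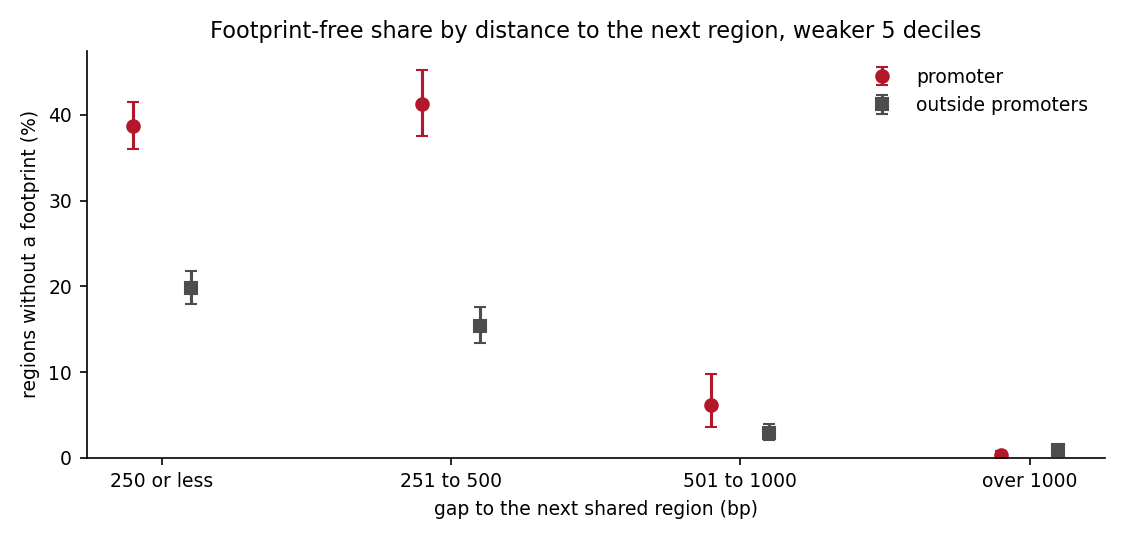
For shared regions in the weaker 5 deciles by peak value, the percentage without a footprint is plotted by the gap to the next shared region, at promoters and elsewhere, with exact 95% intervals. The share is 38.7% and 41.3% at promoters for gaps up to 500 bp and 0.385% beyond 1000 bp.

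As a set, the members were richer in G, C and CpG than the other shared regions. The median GC content was 59.2%, against 51.6% in the other shared regions and 48.2% in others of the same strength. The median ratio of observed to expected CpG was 0.646 against 0.325. At least 50% GC together with a CpG ratio of at least 0.6 was found in 52.0% of the members and 23.1% of the others. At promoters the sets were close, with a median GC content of 65% against 63.9%, a CpG ratio of 0.782 against 0.786 and a CpG-rich share of 74.0% against 72.2%. The regions with exactly 1 footprint in 1 replicate had a median GC content of 50%. With the longer peak lists the GC difference turned to -0.782 points, and with replicate 2 alone to -0.557 points.

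Within the weaker 5 deciles the footprint-free share rose with GC content both at promoters and elsewhere. At promoters it was 5.41% below 45% GC, 11.2% at 45 to 55%, 19.2% at 55 to 65% and 24.4% at 65% or more. Outside promoters it was 1.68%, 2.19%, 5.98% and 20.9%. In the stronger 5 deciles the share was 1.08% or less in every class. Others reweighted to the members' strength and GC content together were at promoters in 36.0%, against 51.2% of the members.

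**Figure D4:**
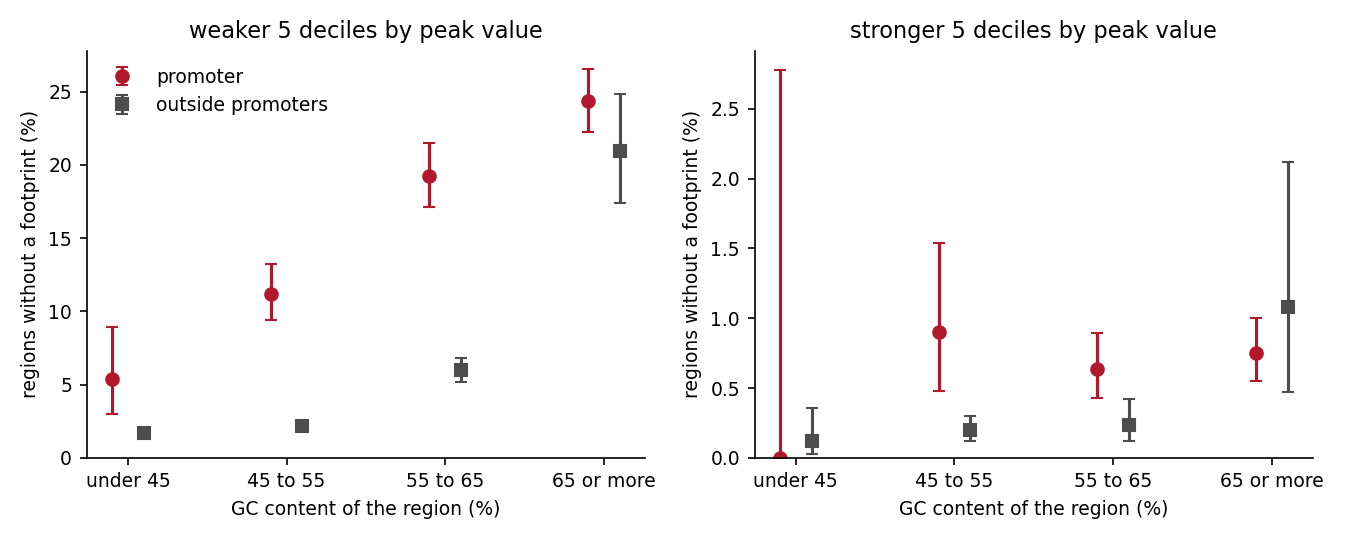
The percentage of shared regions without a footprint is plotted by class of GC content, at promoters and outside them, for the weaker and the stronger 5 deciles by peak value, with exact 95% intervals (the vertical scales differ). Among weaker regions the share rises to 24.4% at promoters and 20.9% elsewhere.

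Short consensus motifs were searched on both strands of the central 150 bp of each region. A match describes letters only, not a bound factor. The core of the insulator protein CTCF, CCACNAGGG, was found in 0.653% of the members (0.327 to 1.17%), in 2.23% of the others, in 2.19% of all, and in 1.59% of others with the members' strength and GC content. The AP-1 motif TGANTCA, bound by Fos and Jun proteins, was found in 6.53% of the members, in 10.8% of the others, in 10.7% of all and in 8.62% of others with like strength and GC. For CAGATGG, an E-box used by NeuroD factors of excitatory neurons, the shares were 5.40%, 10.1%, 10.003% and 7.34% in the same order. These 3 motifs were thus rarer among the members in each comparison, which did not hold for all of the motifs searched. The members were selected for lacking footprints, so their motif content is not independent of the rule. No motif comparison was matched for width.

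GC-rich promoter motifs were not uniformly rarer. GCGTGGGCG, the site of the activity-regulated EGR factors, was found in 0.831% of the members (0.455 to 1.39%), 0.372% of the others, 0.384% of all and 0.608% of others with like strength and GC. GGGGCGGGG, bound by SP and KLF factors, was found in 4.28%, 3.97%, 3.97% and 5.08% in that order. The ETS motif CCGGAAGT was found in 0.475%, 1.43%, 1.40% and 0.522%, and the NRF1 motif GCGCATGCG in 0.178%, 0.830%, 0.812% and 0.299%. The cyclic-AMP response element TGACGTCA was found in 0.238%, 1.04%, 1.02% and 0.404%. It shares its outer letters with AP-1 but differs in spacing. Against others reweighted by strength alone the order changed for several of these motifs. In those others EGR was found in 0.182%, SP/KLF in 1.27%, ETS in 0.206% and NRF1 in 0.151%, all below the members' shares. TGACGTCA was found in 0.311% of them, above the members' share. On that comparison 12 motifs of all those searched were rarer in the members. Of 20 motifs, 14 were rarer in the members than in the others, and for 9 the exact interval of the members lay below that of the others; for EGR it lay above. Set against others with like strength and GC content, CTCF, AP-1 and NeuroD were the 3 whose share lay above the members' interval, and for the other 17 it lay inside. The remaining motifs are given as the share of the members, of all regions and of others with like strength and GC content. The MEF2 motif CTAAAAATA was found in 0.356%, 0.676% and 0.377%. The YY1 motif AAGATGGCG was found in 0.416%, 0.563% and 0.319%, and the NFY motif CCAATCA in 1.43%, 2.85% and 1.49%. For the SOX motif ACAATGG the shares were 1.43%, 1.19% and 1.15%, and for the nuclear receptor motif TAGGTCA of ROR 0.831%, 0.740% and 0.575%. A part of the RFX site, GTTGCCATG, was found in 0.416%, 1.01% and 0.644%, and a part of the REST site, GGACAGCGC, in 0.297%, 0.196% and 0.397%. The POU motif ATTTGCAT was found in 0.831%, 1.28% and 0.822%. A part of the ZNF143 site, CTACAATTC, was in no member, for which the exact interval reaches 0.219%, and in 0.164% and 0.0325%. The TATA motif TATAAA was found in 3.44%, 5.30% and 3.57%, the forkhead motif TGTTTAC in 1.54%, 1.35% and 1.11%, and the TCF/LEF motif TTCAAAG in 1.66%, 2.47% and 1.78%.

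The strongest promoter member lay over a start site of Ncl, at chr1:86358961-86359200, with values of 1.52 in replicate 1 and 2.06 in replicate 2 (1.79 ± 0.381, SD, n = 2). The Srsf7 member, at a splicing factor gene, reached 1.34 and 2.18. The Kat6b member, 232 bp from a start site of a histone acetyltransferase gene, reached 1.19 and 2.03. The members at Tubb4b, a beta-tubulin gene, and Uchl1, a ubiquitin hydrolase abundant in neurons, were at 1.40 and 1.64 and at 1.19 and 1.89. All 5 lay above the medians of the other shared regions in both replicates, 0.870 and 1.27, but below those of the other promoter regions, 1.65 and 2.49. Each had a neighbouring shared region with a footprint 140 to 300 bp away.

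Among exonic members the Igkv6-23 region stood apart. Its values were 2.44 in replicate 1 and 1.52 in replicate 2 (1.98 ± 0.644, SD, n = 2), so it was the higher in replicate 1, while 91.1% of the members were higher in replicate 2. Its next shared region was 19840 bp away and its nearest footprint 19245 bp away. The other strong exonic members lay near start sites or strong neighbours. Pkd1, the polycystin-1 gene, had 1.40 and 1.88, and Cers6, a ceramide synthase gene, 0.959 and 1.28. Scarf2, a scavenger receptor family gene, had 0.875 and 1.32, and Scarb2, which encodes a lysosomal membrane protein, 0.860 and 1.28.

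Intronic members reached 1.44 and 1.57 at Sbf1, a myotubularin-related gene, in replicates 1 and 2. The member in Rhbdd3, a rhomboid-domain gene, had 1.25 and 1.59. The member in Dlg2, which encodes a synaptic scaffold protein, had 1.38 and 1.39, and that in Myo9a, an unconventional myosin gene, 1.06 and 1.53. Of these 4, the Dlg2 member was the one whose nearest protein-coding start site was far off, at 279393 bp, and a shared region with footprints lay 20 bp beside it.

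The strongest member of all lay in intergenic sequence upstream of Tnrc6b, whose protein acts in microRNA silencing. The near edge of this region was 413 bp from a start site, but its midpoint fell outside the promoter window. A shared region with a footprint lay 100 bp away, and the nearest footprint 75 bp away. The member's values of 2.65 and 2.86 (2.76 ± 0.151, SD, n = 2) were the highest of all members in both replicates. It was 1 of the 2 members in strength decile 9, where the strongest other regions had footprints in both replicates, such as 7 and 8 in one near Scube1 with values of 3.20 and 2.60. A region over a start site of Rps15, a ribosomal protein gene, was at 2.33 and 3.58 with 1 and 6 footprints. Regions near Spesp1, Cflar and Dip2c had 3 to 4 footprints in replicate 1 and 4 to 5 in replicate 2. The next intergenic members lay near Spns1, a lysosomal transporter gene, at 1.27 and 2.04, and near Znrf4, a ubiquitin ligase gene, at 1.38 and 1.63. Those near Spsb2, a SOCS-box protein gene, and Sfr1, a recombination factor gene, were at 1.38 and 1.60 and at 1.56 and 1.40. Each of these next members had a shared region with a footprint 80 to 540 bp away, and the Spns1 member lay 491 bp from a start site.

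**Figure D5:**
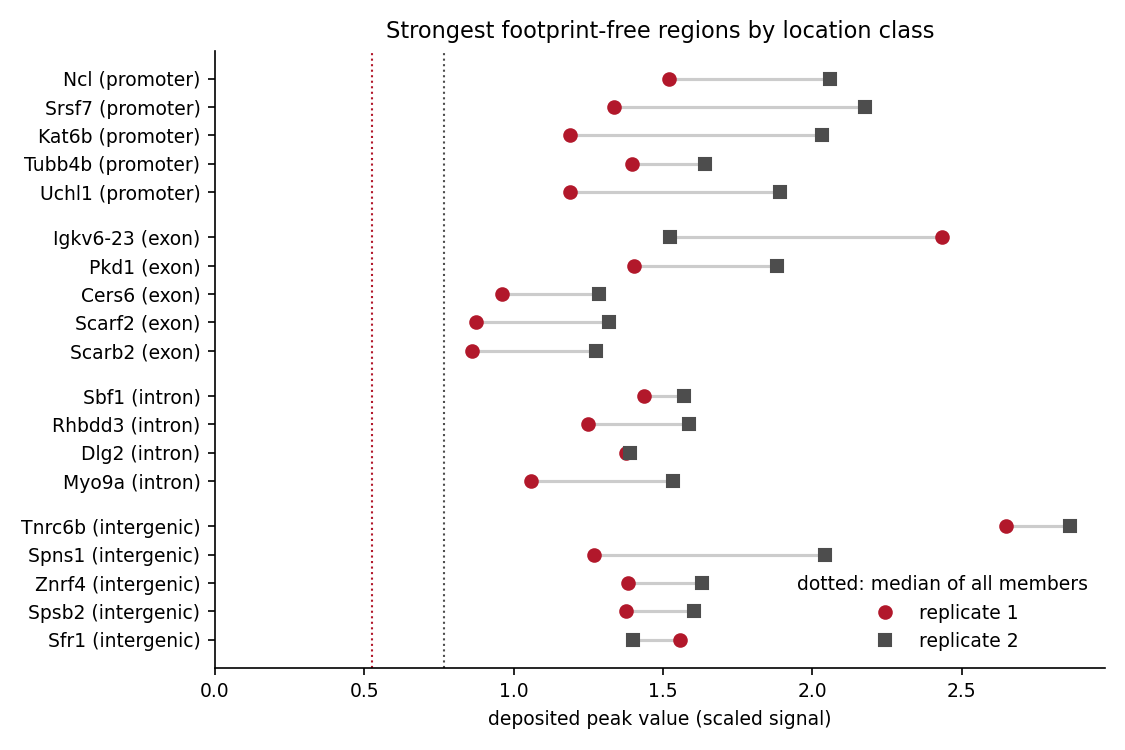
The deposited peak value in replicate 1 and replicate 2 is plotted for 19 of the strongest footprint-free regions, 4 in introns and 5 in each other location class, named by the gene assigned. Dotted lines mark the medians of all members, 0.527 and 0.767, and the Igkv6-23 and Sfr1 regions are the ones higher in replicate 1.

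Taking the nearest coding gene whose start site lay at most 100 kb away, 1523 of the members could be assigned, 90.4%, against 82.8% of the others. The assigned others fell on 15182 genes. The assigned members fell on 1388 genes. Most of these genes, 1263, had 1 member, 117 had 2 and 8 had 3 or 4. These 8 are named for having the most, and no expected number per gene was computed. Trib2, a pseudokinase gene, had 4 of its 15 shared regions without a footprint, and Pcdh15, a protocadherin gene, 4 of 19. Kmt2c, a histone methyltransferase gene, had 3 of 9, as had Marcks, whose protein links the membrane to actin, and Vsnl1, a neuronal calcium sensor gene. Prickle1, a planar polarity gene, had 3 of 12, Kat6b 3 of 13 and Magi2, a synaptic scaffold gene, 3 of 39.

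The 3 members at Vsnl1 lay in a row, separated by 30 and 62 bp. The first covered a start site, and the other 2 lay 151 and 333 bp from one. In replicate 1 their values were 0.447, 0.482 and 0.328 from the lowest to the highest coordinate, and in replicate 2 0.562, 0.633 and 0.508. The 3 were 318, 228 and 200 bp wide, and the nearest footprint lay 253 to 515 bp away. At Kat6b 2 weaker members, with 0.542 and 1.02 in replicate 1 and 0.838 and 1.29 in replicate 2, lay about other start sites of the gene than the strong one. At Pcdh15 the members were scattered: 2 lay 1865 and 183 bp from a start site, with a neighbour 60 and 45 bp away, and 2 stood 5144 and 53086 bp from any shared region.

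A footprint-free region was seldom a gene's sole shared promoter region. Of 12103 protein-coding genes with a shared promoter region, 818 had a footprint-free one, 6.76%. Of these 818, 788 also had a shared promoter region with a footprint, 96.3%. The remaining 30 had none with its midpoint within 500 bp of a start site of theirs. All of the 12103 genes other than these 30 had a shared promoter region with a footprint. Over all genes that share was thus higher than the 96.3%. How often a region with a footprint was a gene's only shared promoter region was not computed. Most of the 30 had another shared region at most 1200 bp away, at 340 bp for Gmfg and 400 bp for Pik3ca. The 30 included Gmfg, a glia maturation factor gene, with 1.05 in replicate 1 and 1.74 in replicate 2, and Pik3ca, the catalytic subunit of a lipid kinase, with 0.820 and 1.27. These were the strongest of the 30, and they were chosen after their values were seen. Among the weakest of the 30, 4 genes had their region 63700 bp or more from any other shared region: Ikzf1, a lymphoid transcription factor gene, Lyn, a kinase gene of blood cells, and the neighbouring olfactory receptor genes Olfr78 and Olfr560, which shared 1 region. Ikzf1 had 0.318 and 0.419, and Lyn 0.328 and 0.374.

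The 16 gene lists, 273 genes of brain cell types and reference groups, held few members. All listed genes were found in the annotation. Of 140 shared regions assigned to pan-neuronal genes, 3 were footprint-free, 2.14% (0.444 to 6.13%): 2 within Nefl, a neurofilament gene, and 1 in Elavl4, a neuronal RNA-binding protein gene. Of 106 regions of activity-regulated genes, 3 were footprint-free, 2.83% (0.588 to 8.05%), near Egr3, Nr4a3 and Nr4a2, which encode immediate-early transcription factors. The Egr3 member had 0.671 in replicate 1 and 1.16 in replicate 2, the Nr4a3 member 0.532 and 0.9987, and the Nr4a2 member 0.631 and 0.704. None of these 6 regions was at a promoter.

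In the cell type lists a single member each was found for excitatory neurons (1 of 113, in Tle4), astrocytes (1 of 59, at the promoter of Glul, glutamine synthetase), oligodendrocyte precursors (1 of 52, in Tnr) and microglia (1 of 28, at the promoter of Irf8). The Glul member covered a start site, with 0.582 and 0.829. The Irf8 member was weak, at 0.383 and 0.597. Foxj1, a regulator of motile cilia in ependymal cells, had the single member of the choroid plexus and ependyma list, 1 of 19, at 0.567 and 1.19. Inhibitory neuron genes had 0 of 51, oligodendrocyte genes 0 of 50, endothelial genes 0 of 49 and mural cell genes 0 of 12. Each exact interval, reaching 6.98% for inhibitory neurons and 26.5% for mural cells, contains the 2.66% found over all regions.

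The reference lists were alike. Housekeeping genes had 0 of 49 and cytosolic ribosomal protein genes 1 of 53, a region 88292 bp from Rps24. Hox genes had 0 of 11 and hepatocyte genes 0 of 10. Striated muscle genes had 1 of 24, at a start site of the antisense gene Myhas nearest to Myh4. For 4 of the 16 lists the share was above that of all regions, and for each list the exact interval contained the share over all regions. The list shares cover assigned regions only, whereas the share over all regions also counts those assigned to no gene. Members were assigned more often than others, 90.4% against 82.8%. The share over assigned regions is therefore higher, and fewer lists may lie above it. The list shares moved with the replicate used. In replicate 2 alone 28.1% of the regions of excitatory neuron genes and 7.65% of those of pan-neuronal genes had no footprint, against 16.3% of all regions. In replicate 1 alone the shares were 18.5% and 11.5%, against 10.8%.

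Members were found on all 19 autosomes. The share ran from 1.77% on chromosome 8 (1.35 to 2.28%) to 3.09% on chromosome 3 (2.53 to 3.73%). Repeats covered 50% or more of 1.07% of the members and 1.29% of the other shared regions. The longer peak lists held 92.9% of the members in replicate 1 and 93.9% in replicate 2, against 99.9% or more of the other shared regions, so some peaks of the shorter list have no counterpart in the longer one. All members overlapped intervals with an FDR of 0.001 or less in both replicates. Such intervals covered a median of 90.4% of a member's bases in replicate 1 and 98.7% in replicate 2, against 93.2% and 97.1% in others of the same strength.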

How the data were processed

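Peak values are a signal that the authors deposited for each library. How it was normalized, which caller made the peaks and which aligner placed the reads is not given in the sources. The authors also deposited, in mm10, intervals with an FDR (q-value) each and footprints listed at a p-value threshold of 0.01. Footprints were derived from the alignments and the FDR list, per the deposited descriptions.

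For each replicate the peak list with fewer rows was taken, 86601 and 88482 peaks. Intervals that overlapped or touched were merged into 105529 regions, of which 64789 held a peak of each replicate. The footprint lists hold 307092 and 279769 intervals. Start sites, exons and genes came from GENCODE M21, and sequence from GRCm38.p6. Regions were placed by midpoint, in the order promoter, exon, intron, intergenic. Reweighting gave other regions the members' distribution over strength bins, alone or crossed with width, promoter location or GC content. Named regions were the 5 strongest members of each location class (1 intronic member is not reported here), the 5 widest, the genes with most members (8 genes with 3 or more, since 117 tied at 2), the members in the gene lists and 5 other regions of the strongest member's decile. Sequences were trimmed of UTR bases and to 300 bp at most. Python 3.11.15, numpy 2.4.6, pandas 2.3.3 and scipy 1.17.1 were used, and the interval functions and reweighting were tested on simulated data. Shares have exact 95% Clopper-Pearson intervals. No test across regions was made, since they come from 1 group of 2 replicates. The members and lists were chosen with earlier results of these data known.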

Additional observations from a re-analysis of the deposited data

How the results depend on the processing

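Of 112 recomputed summary values, 69 stayed within 1 SD of the values of the replicates taken alone (or, for counts, within 1.5 times), 40 moved and 3 changed sign; the causes were not tested. That SD is wide for the share of regions without a footprint, 3.89 points, so shares of 5.41% (longer lists) and 0.424% (upper 50% by strength) against 2.66% fall within it. For excitatory neuron genes it is 6.79 points, so 3.61% (longer lists) against 0.885% counted as the same. For the members' median width it is 0, so any change counted as moved. These tallies are therefore no measure of robustness. Of 72 further shares in 6 gene lists, 17 moved, such as microglia from 3.57% to 0 and housekeeping from 0 to 4.69% with the longer lists. Further settings required a mutual overlap of 50%, a footprint wholly inside, none within 50 bp, or exactly 1 peak of each replicate. Another, added after seeing the data, did not merge touching regions. These settings gave 1512 to 1744 members against 1684. Of the summary values they moved only the members' median width, to 277.5 bp (footprint wholly inside), 281 bp (none within 50 bp) and 260 bp (1 peak of each). Of the gene-list shares they moved only that of activity-regulated genes, from 2.83% to 1.96% (mutual overlap) and 1.89% (none within 50 bp). With the longer peak lists the count was 5375, the ratio of median values 0.474, the members' width 220 bp, the promoter difference 1.74 points, the distances to a start site 7540 and 7396 bp, the GC difference -0.782 points and the neighbour difference 16.2 points. In the upper 50% by strength the count was 134, the members' width 300 bp, the distance of the others 1938 bp, the GC difference 6.04 points, the neighbour difference 77.4 points, and 0 gene lists were above the share of all regions against 4. A promoter window of 100 bp gave a promoter difference of -4.44 points and one of 2000 bp 38.8 points, against 25.3. Reweighting by strength gave 40.1 points, a distance of 12870 bp and a GC difference of 11.0 points; strength and width together gave 36.1 points, 12251 bp and 10.7 points. With 1 replicate alone, over all peaks of that library, the count was 8976 to 13781, the share 10.8 to 16.3%, the ratio 0.450 to 0.590, the members' width 119 bp in both, the others' width 200 to 201 bp, the promoter difference 1.54 to 7.85 points, the distances 2702.5 to 4694 and 6138 to 7085 bp, the GC difference -0.557 to 1.48 points and the neighbour difference 26.6 to 32.7 points. The neighbour comparison and the reweighting of motif shares were also added after seeing the data. Depth sets the counting error of each value: the median member rested on an inferred 106 and 86 reads.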
